A study of Homo sapiens with 9 samples.

Results

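CDK9 was found on A375 chromatin not only as single peaks but in runs of neighbouring peaks, and those runs are described here. A run is a set of 5 or more peaks of the CDK9 list from DMSO-treated cells, on one chromosome, with at most 10 kb between the end of a peak and the start of the next. The members were selected on the positions of these deposited peaks alone, so the number and spacing of DMSO peaks in a run are a description and not a finding. The rule gave 62 runs with 568 of the 3462 CDK9 DMSO peaks, or 16.4%. The series has 9 samples of A375, an established human melanoma line, with 1 library for each group. DDX21 and CDK9 were immunoprecipitated after 24 h in DMSO, in 25 µM A771726, or in 25 µM A771726 together with nucleotides, whose kind and dose are not given. Peak lists of these 6 libraries were used and the 3 inputs were not used here. With a single library per group there is no replicate spread to judge a difference between treatments by, so no test was made.

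CDK9 is the kinase of P-TEFb, the complex that releases paused RNA polymerase II into the gene body by phosphorylating the polymerase and its pausing factors. It is therefore mapped at promoters, at enhancers and along the bodies of strongly transcribed genes. A771726 blocks dihydroorotate dehydrogenase and with it the making of pyrimidine nucleotides, which added nucleotides can supply from outside. DDX21 is an RNA helicase of the nucleolus that also has been tied to 7SK RNA and P-TEFb. The comparison asks what becomes of dense CDK9 occupancy when pyrimidine synthesis is blocked, and when nucleotides are given back.

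Coordinates are those of the deposited hg19 lists, counted from 1. RefSeq's gene table was used in its GRCh38 form, so no overlap with exons, introns or promoters was computed, and enhancers were not assigned. For 40 of the 62 runs a gene or interval is named here from its well-known place on hg19, and the other 22 are left without a name. All 68 gene symbols used were present in the RefSeq table on the chromosome of their run, and in all 18 pairs of neighbouring named runs the genes stood in the same order as the runs. Such a name says where a run lies and not which transcript CDK9 was acting on.

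For 4 of the named runs at microRNA genes or their host transcripts, the mature products of the loci are shown to identify them. The run on chromosome 11 from 122011349 to 122073949 lies in MIR100HG, which gives rise to miR-100 and let-7a. The run on chromosome 17 from 57906695 to 57920914 lies at the end of VMP1, where MIR21 sits. Runs on chromosome 19 from 13947711 to 13962305 and on chromosome X from 45607254 to 45634727 lie beside MIR23A, MIR27A and MIR24-2, and in the transcript of MIR221 and MIR222. Sequences are the RefSeq mature forms (GRCh38.p14), 5′ to 3′, with the seed, bases 2 to 8, in capitals.
hsa-miR-100-5p: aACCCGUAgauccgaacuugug
hsa-let-7a-5p: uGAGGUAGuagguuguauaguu
hsa-miR-21-5p: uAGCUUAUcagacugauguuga
hsa-miR-23a-3p: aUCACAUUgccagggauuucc
hsa-miR-27a-3p: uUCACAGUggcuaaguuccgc
hsa-miR-24-3p: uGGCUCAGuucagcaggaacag
hsa-miR-221-3p: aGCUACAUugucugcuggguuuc
hsa-miR-222-3p: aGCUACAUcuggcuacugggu
The last pair shares the seed GCUACAU, and the other 6 seeds differ from each other. The let-7a product is also made by other genes, 3 in all in the table, and miR-24 by 2.

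The runs together spanned 1084134 bp on 20 chromosomes, with a median length of 15494 bp. The shortest, on chromosome 8 from 127512328 to 127514133, was 1806 bp long and 72.2% of it lay under DMSO peaks. The longest was the MIR100HG run, with 62601 bp, of which 17.7% lay under peaks. Over all runs the median covered share was 15.7% and the lowest 4.33%, so most of a typical run was not under a called peak. Neighbouring peaks of a run were a median of 573 bp apart, so several called peaks can belong to 1 stretch. After peaks within 1 kb were merged, the spans held 261 DMSO stretches, and the rule applied to merged peaks gave 24 runs. Chromosomes 6 and 8 had 6 runs each and chromosome 1 had 5.

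Run size ranged from 5 to 30 peaks with a median of 8. At the edge of the rule stood 9 runs of exactly 5 peaks, and 40 stretches of exactly 4 fell just outside. The largest gap inside a run was 9831 bp, and the nearest CDK9 DMSO peak beyond the end of any run was 10332 bp away. The 19 runs with 10 or more peaks held 277 of the 568 peaks.

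Peaks in runs had the same median height as other CDK9 peaks, but were wider. The fragments stacked over a summit, recovered from each deposited fold enrichment and −log10 p and here called the pileup, had a median of 23 in runs and 23 outside them. The local background, recovered in the same way, had medians of 3.95 and 4.17 fragments. The median width was 232 bp in runs and 181 bp elsewhere, and 116 of 568, or 20.4%, were in the highest decile of −log10 q, against 7.95% outside. The median fold enrichment, as the authors' peak caller gave it, was 4.74 in runs and 4.43 outside.

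Most of the run peaks had no counterpart in the A771726 list, which held 290 peaks where the DMSO list held 3462, so its length bounds the share that can be found again. Of the 568 peaks, 82 overlapped a CDK9 peak of the A771726 list by at least 1 bp, a share of 14.4% (95% exact binomial interval 11.7 to 17.6). Over all CDK9 DMSO peaks the share was 5.40%, and outside runs it was 3.63% (2.98 to 4.38). Of the 103 run peaks among the top 290 of the DMSO list by −log10 q, 37.9% (28.5 to 47.96) had an A771726 peak. These intervals treat peaks as independent, which neighbours in a run are not, and cover counting error only. Kept peaks were the larger ones: their median width was 496 bp and median pileup 33, against 221 bp and 22 for the 486 that were not kept.

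With nucleotides most run peaks were found again. A CDK9 peak of the list with nucleotides overlapped 364 of the 568, or 64.1% (59.99 to 68.0), against 45.2% over all CDK9 DMSO peaks and 41.5% (39.7 to 43.3) outside runs. Of the 486 run peaks without an A771726 peak, 295 had one with nucleotides, a share of 60.7% (56.2 to 65.1). Outside runs the same share was 39.5% (37.7 to 41.4), from 1102 of 2789 peaks. Only 13 run peaks had an A771726 peak and none with nucleotides, and most of these lay in the SERPINE2 run.

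Shares were higher in runs at each level of peak strength, but with A771726 they rested on few peaks in the weaker deciles. When the CDK9 DMSO peaks were split into 10 deciles of −log10 q, the share with an A771726 peak was higher in runs than outside in all 10 deciles, and so was the share with nucleotides. In the highest decile 37.9% (29.1 to 47.4) of 116 run peaks had an A771726 peak, against 25.7% (20.1 to 31.8) of 230 others, and these intervals overlap. In the ninth decile the shares were 20.7% (11.2 to 33.4) and 4.17% (2.17 to 7.17). In the lowest decile only 1 of 39 run peaks and 2 of 308 others had one. The third decile had 1 of 51 and 1 of 295, and the fifth 1 of 53 and 3 of 293. In the third decile that 1 run peak lay in the SERPINE2 run, so without this run the share there was not higher in runs. For nucleotides, the seventh decile had 79.2% (65.0 to 89.5) in runs and 49.7% (43.9 to 55.5) outside. Width was not matched in this split, and its part was not tested.

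**Figure D1:**
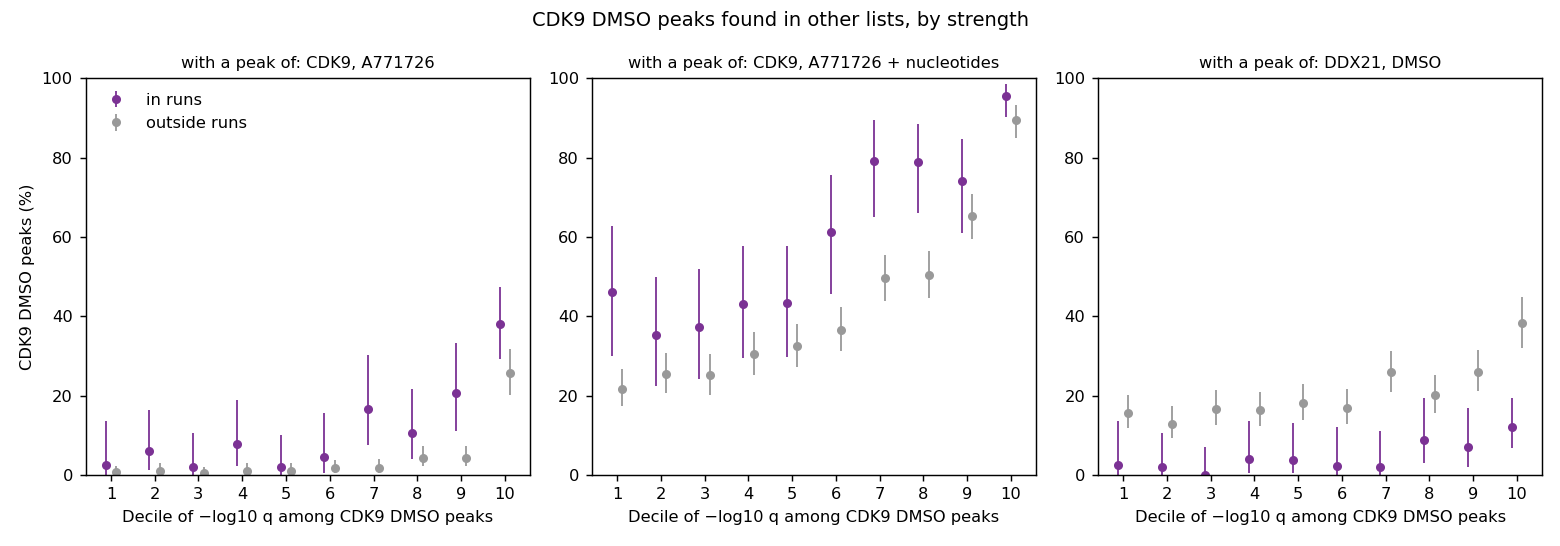
Share of CDK9 DMSO peaks (%, vertical axes) that overlap a peak of the CDK9 A771726 list, the CDK9 list with nucleotides, or the DDX21 DMSO list, by decile of −log10 q (horizontal axes, 10 is strongest). Points are shares and bars are 95% exact binomial intervals for peaks in runs (purple) and outside (grey). Run peaks lie higher in all 10 deciles of the first and second panels and lower in all 10 of the third. In deciles 1, 3 and 5 of the first panel the share in runs rests on 1 peak.

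The share of peaks with an A771726 peak was higher in larger runs, with overlapping intervals, and the share with nucleotides was not. In the 9 runs of exactly 5 peaks, 2 of 45 peaks, or 4.44% (0.543 to 15.2), had an A771726 peak, beside 4.38% of 160 peaks in the stretches of exactly 4. In the 34 runs of 6 to 9 peaks the share was 11.0% (7.36 to 15.6), from 27 of 246. In the 19 runs of 10 or more it was 19.1% (14.7 to 24.3), from 53 of 277, and 16.1% (11.7 to 21.2) without the SERPINE2 run. Median −log10 q in these 3 sizes was 6.54, 7.11 and 5.69, so the largest runs did not hold the strongest peaks by this measure. With nucleotides the shares were 68.9%, 68.7% and 59.2%, beside 60.6% in the stretches of exactly 4.

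Counted by the spans, from the start to the end of each run, the runs held 568 CDK9 peaks of the DMSO list, 131 of the A771726 list and 464 of the list with nucleotides. The DMSO number had to be at least 5 in every run by the rule, so a lower number in another list would be seen in many runs without any effect of treatment. The lists with A771726 and with nucleotides had no part in the choice, but they differ in length, with 290 and 3099 peaks. A longer list can put more peaks in the spans, so the raw numbers are not on one scale. Cut to its top 290 peaks, the list with nucleotides put 92 in the spans, fewer than the 131 with A771726. For each 100 DMSO peaks there were 23.1 A771726 peaks in the spans, 8.38 over the whole lists and 5.49 outside the runs, so by this measure the runs kept a larger part than the rest of the list. With nucleotides the values were 81.7, 89.5 and 91.1. No run was without a peak with nucleotides, while 30 of 62 had none with A771726 and 11 had just 1. The median run held 8 DMSO peaks, 1 A771726 peak and 6 peaks with nucleotides, and triplets of values below follow this order. In 59 runs there were fewer peaks with A771726 than with nucleotides, in 2 runs, at DDIT4 and ID1, the numbers were equal, and in 1, at SERPINE2, there were more, all counted in lists of unequal length. Against DMSO, the list with nucleotides had fewer peaks in 42 runs, as many in 6 and more in 14.

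**Figure D2:**
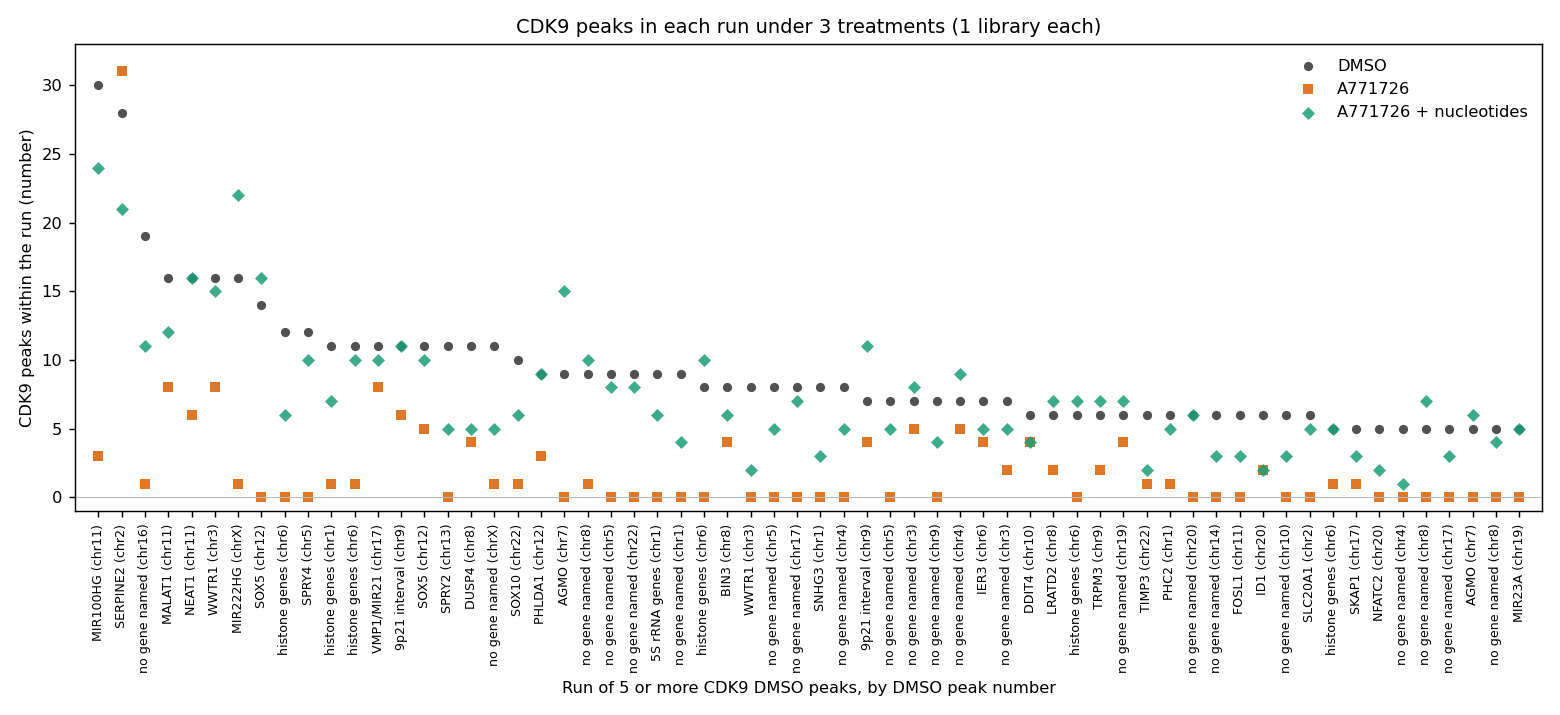
Number of CDK9 peaks (vertical axis) within each of the 62 runs (horizontal axis, ordered by DMSO peaks and labelled with the named locus and chromosome) in DMSO, A771726, and A771726 with nucleotides, 1 library each. A771726 squares sit at 0 in 30 runs and rise above the DMSO circle only in the SERPINE2 run, and nucleotide diamonds run from 1 to 24.

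A larger share of the A771726 list than of the other whole lists lay in these spans. They held 45.2% (39.4 to 51.1) of the 290 peaks of that list, 14.97% (13.7 to 16.3) of the 3099 peaks with nucleotides, and 16.4% (15.2 to 17.7) of those in DMSO. When the other lists were cut to their top 290 peaks by −log10 q, the spans held 35.5% (30.0 to 41.3) in DMSO and 31.7% (26.4 to 37.4) with nucleotides. The interval for the A771726 list overlaps that for the top DMSO peaks, and its share was 38.6% (32.7 to 44.8) without the SERPINE2 run. Called peaks were shorter in the A771726 list, with a shortest of 50 bp against 128 bp in DMSO and 129 bp with nucleotides. In the DDX21 lists the shortest were 116 to 131 bp. Settings of the peak caller are not given, so whether this list was called with another minimum length is unknown and was not tested. Shorter peaks can divide one stretch into several. After peaks within 1 kb were merged in each list, 33.2% (26.6 to 40.3) of 193 A771726 stretches lay in the spans. The shares were 9.06% (8.03 to 10.2) of 2882 stretches in DMSO and 8.80% (7.72 to 9.96) of 2547 with nucleotides. These merged lists were not cut to equal length, so their unequal length enters this comparison.

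**Figure D3:**
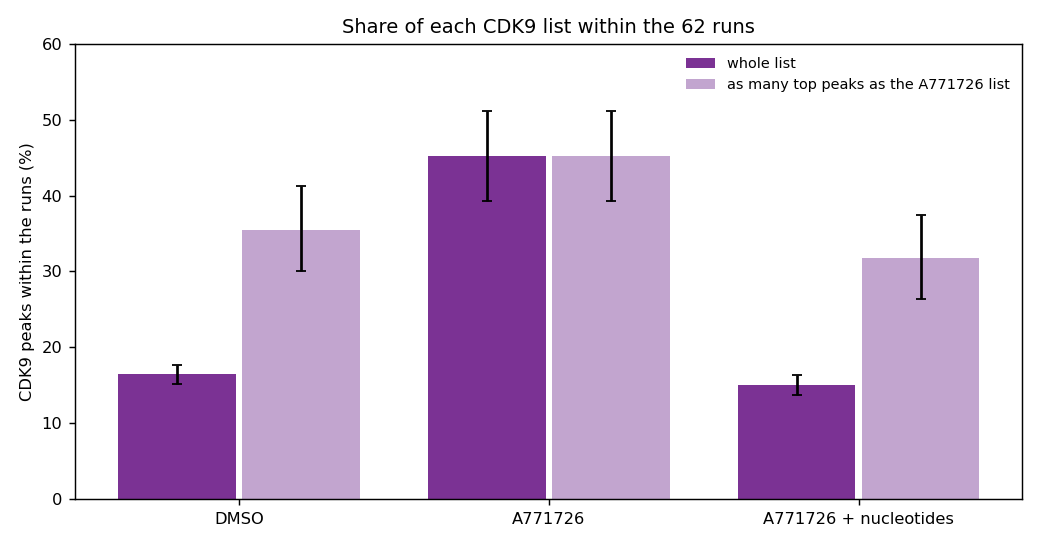
Share of each CDK9 list (%, vertical axis) whose peaks lie within the 62 runs, for the whole list (dark bars) and for as many top peaks as the A771726 list holds (light bars), by treatment (horizontal axis). Error bars are 95% exact binomial intervals. The A771726 list stands at 45.2%, the whole lists in DMSO and with nucleotides at 16.4% and 14.97%, and their top 290 peaks at 35.5% and 31.7%.

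The gap to DMSO was wider in covered length than in number of peaks with A771726, and narrower with nucleotides. For each 100 in DMSO there were 11.3 bp and 23.1 peaks with A771726, and 88.9 bp and 81.7 peaks with nucleotides. DMSO peaks covered 191165 bp of the spans, or 17.6%, A771726 peaks 21594 bp, or 1.99%, and peaks with nucleotides 169957 bp, or 15.7%. Covered length was lower with A771726 than in DMSO in all 62 runs, and with nucleotides it was lower in 43 and higher in 19. The shorter peaks of the A771726 list enter this measure too, and their part was not tested. The A771726 peaks in the spans that overlapped no DMSO peak were mostly at SERPINE2: of 131 A771726 peaks, 105 overlapped a DMSO peak and 26 did not, and 19 of those 26 lay in the SERPINE2 run. With nucleotides 109 of 464 overlapped none.

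SERPINE2, which encodes a secreted inhibitor of serine proteases, had the most A771726 peaks of any run. Its run, on chromosome 2 from 224866307 to 224907328, held 28 peaks of the DMSO list, 31 of the A771726 list and 21 of that with nucleotides. These covered 6200, 5566 and 5056 bp, and after merging within 1 kb each list had 11 stretches, so the higher number with the drug was not seen after merging. The strongest peak of all 3 lists lay in the same place, toward the 5′ end of the run by the strand that RefSeq gives for the gene. There the DMSO peak, from 224903766 to 224903975, had a fold enrichment of 10.8 and a width of 210 bp. The A771726 peak, from 224902751 to 224904031, had 20.1 and 1281 bp, and the peak with nucleotides, from 224903136 to 224904013, had 10.7 and 878 bp. Fold enrichments from different lists do not share a scale. The highest pileup was 36, 39 and 54 fragments, in counts not scaled between the libraries. Only 12 of the 31 A771726 peaks overlapped a DMSO peak and 9 a peak with nucleotides, so the positions along the run differed between the lists.

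**Figure D4:**
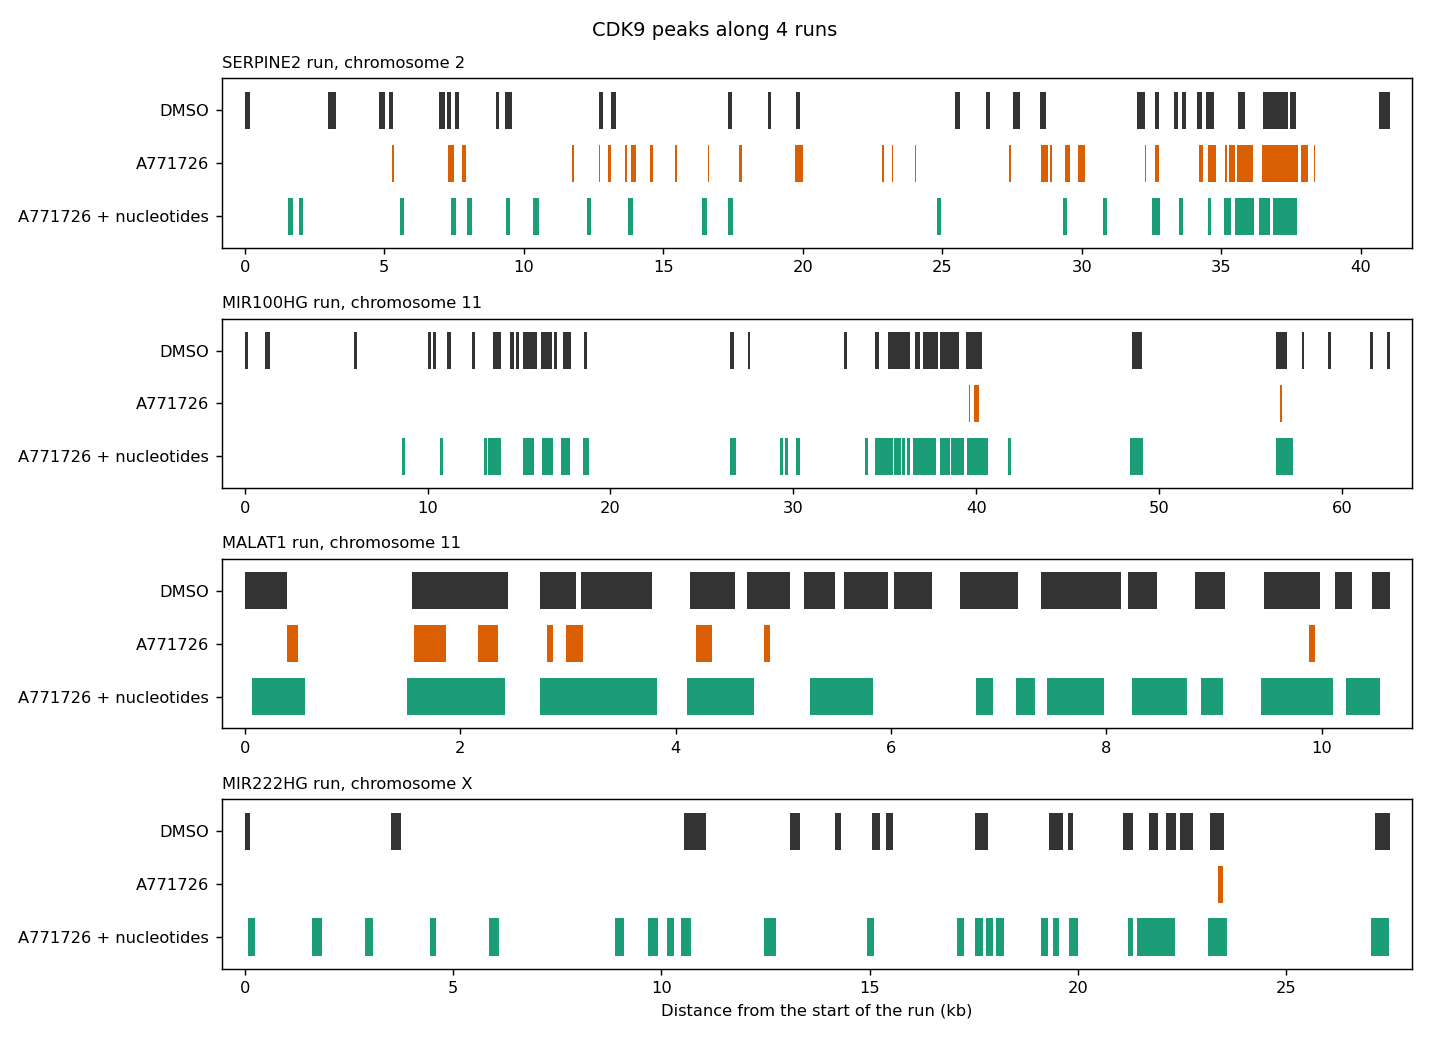
Positions of CDK9 peaks along 4 runs (horizontal axis, distance from the start of the run in kb; each panel has its own scale) in DMSO, A771726, and A771726 with nucleotides (rows). Blocks are peaks drawn to width. In the SERPINE2 run 31 A771726 blocks are spread along the span, in MALAT1 most of the 8 lie toward its start, and MIR100HG has 3 and MIR222HG 1.

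A group of 7 runs named for noncoding RNA genes, with the run at the 5S ribosomal RNA genes kept apart, held 102, 26 and 92 CDK9 peaks. Of the 102 peaks, 16.7% (10.0 to 25.3) had an A771726 peak, near the 14.4% of all run peaks, and 66.7% (56.6 to 75.7) had one with nucleotides. Within this group the loci fell apart. MIR100HG, the run with the most DMSO peaks, had 30, 3 and 24, and MIR222HG had 16, 1 and 22. MALAT1 and NEAT1, abundant nuclear RNAs of nuclear speckles and paraspeckles, had 16, 8 and 12 and 16, 6 and 16. The MIR21 run had 11, 8 and 10, the MIR23A run 5, 0 and 5, and SNHG3, a host of small nucleolar RNAs, 8, 0 and 3.

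At NEAT1 and MALAT1 the strongest peaks of all 3 lists overlapped. In NEAT1, on chromosome 11 from 65188733 to 65209586, the strongest peak began at 65190174 in DMSO, 65190118 with A771726 and 65190165 with nucleotides. Its width was 2231, 1200 and 2389 bp. In MALAT1, from 65264806 to 65275434 on the same chromosome, it began at 65266355, 65266376 and 65266310, with widths of 899, 296 and 912 bp. MALAT1 was densely covered, with 64.1% of its run under DMSO peaks. In MIR100HG, by contrast, the strongest DMSO peak, from 122050775 to 122051689, and the strongest with nucleotides, from 122050819 to 122051987, coincided, while the strongest A771726 peak was elsewhere, from 122067938 to 122068087, and a weaker one overlapped the strongest DMSO peak. Highest pileups in MIR100HG were 62, 15 and 61 fragments, and in MIR222HG 30, 13 and 32.

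Replication-dependent histone genes, which are transcribed in S phase and yield messages without a poly(A) tail, accounted for 6 runs. They held 53, 3 and 45 CDK9 peaks, covering 26245, 275 and 21666 bp. Of the 53 peaks 5.66% (1.18 to 15.7) had an A771726 peak and 73.6% (59.7 to 84.7) one with nucleotides, intervals that hold the 14.4% and 64.1% of all run peaks. The run on chromosome 1 from 149804084 to 149833122, with H4C14, H3C14 and H2AC18, had 11, 1 and 7 peaks. On chromosome 6 the runs with H2BC13 and H4C11, from 27775420 to 27805996, and with H3C1 and H1-2, from 26020591 to 26056756, had 12, 0 and 6 and 11, 1 and 10. The remaining runs there, starting at 26189164, 26233383 and 27100129, had 6, 0 and 7, then 5, 1 and 5, then 8, 0 and 10. Some histone genes, on chromosome 1 above all, exist in near-identical copies, between which short reads cannot always be told apart.

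Genes known as outputs or brakes of ERK signalling accounted for 6 runs, a group formed after the values were seen. A375 carries an activating BRAF mutation, which drives this pathway. The group held 56, 11 and 37 peaks, and 12.5% (5.18 to 24.1) of the 56 had an A771726 peak and 62.5% (48.6 to 75.1) one with nucleotides, near the 14.4% and 64.1% of all run peaks. The Sprouty genes, feedback inhibitors of receptor signalling, had none with the drug: SPRY2 had 11, 0 and 5 peaks and SPRY4 had 12, 0 and 10. FOSL1, a subunit of the AP-1 transcription factor, had 6, 0 and 3. The ERK phosphatase gene DUSP4 had 11, 4 and 5, the immediate early gene IER3 had 7, 4 and 5, and PHLDA1 had 9, 3 and 9. In SPRY2 the 11 DMSO peaks covered 3079 bp and the 5 with nucleotides 2709 bp, so the number differed more than the covered length.

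Runs at transcription regulators were 7, with 70, 16 and 53 peaks. Of the 70 peaks 18.6% (10.3 to 29.7) had an A771726 peak and 50% (37.8 to 62.2) one with nucleotides. Over all run peaks the shares were 14.4% and 64.1%, and over all CDK9 DMSO peaks 5.40% and 45.2%. The interval with nucleotides thus lay below the share of all run peaks. WWTR1, the Hippo pathway coactivator TAZ, had a run on chromosome 3 from 149286425 to 149321548 with 16, 8 and 15 peaks. A further WWTR1 run, from 149336543 to 149359114, had 8, 0 and 2. SOX5 likewise had a run from 24080857 to 24103492 on chromosome 12 with 14, 0 and 16 peaks and another from 24186663 to 24199167 with 11, 5 and 10. So in each of these genes 1 run kept A771726 peaks and its neighbour had none. The run without them was also the weaker in DMSO. Its highest −log10 q was 19.6 against 55.6 at WWTR1, and 11.1 against 33.6 at SOX5. SOX10, a regulator of the melanocyte lineage, had 10, 1 and 6 peaks, ID1 had 6, 2 and 2, and NFATC2 had 5, 0 and 2.

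Both runs between CDKN2B-AS1 and DMRTA1 on chromosome 9 kept A771726 peaks and had all or more of their number with nucleotides. The first, from 22142020 to 22170877, had 11, 6 and 11 peaks and the second, from 22210307 to 22218350, had 7, 4 and 11. Highest pileups were 95, 35 and 105 fragments in the first and 71, 21 and 69 in the second. Of their 18 DMSO peaks, 17 had a peak with nucleotides, or 94.4% (72.7 to 99.9), and 7, or 38.9% (17.3 to 64.3), had one with A771726. Over all run peaks these shares were 64.1% and 14.4%, and over all CDK9 DMSO peaks 45.2% and 5.40%.

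The highest ratio of peaks with nucleotides to DMSO peaks was at AGMO, an ether lipid monooxygenase gene, with 9, 0 and 15 peaks on chromosome 7 from 15529058 to 15548347. After it by ratio came the second chromosome 9 run, an unnamed run on chromosome 8 from 98355830 to 98367193 with 5, 0 and 7, MIR222HG, and an unnamed run on chromosome 4 from 189321875 to 189333263 with 7, 5 and 9. The lowest ratio was in a neighbouring run on chromosome 4, from 189366035 to 189370205, with 5, 0 and 1. The second WWTR1 run, TIMP3 with 6, 1 and 2, ID1 and SNHG3 followed. In ID1 the covered length was nearly equal, 1393 bp in DMSO and 1361 bp with nucleotides, so its fewer peaks were longer ones. Among unnamed runs the one richest in DMSO peaks, on chromosome 16 from 22018627 to 22038869, had 19, 1 and 11.

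Runs at other named genes were 11, with 91, 46 and 81 peaks, and 31 of the 46 A771726 peaks were those of SERPINE2. Of the 91 peaks 24.2% (15.8 to 34.3) had an A771726 peak and 59.3% (48.5 to 69.5) one with nucleotides. SERPINE2 held 13 of the 22 with an A771726 peak. DDIT4, a stress-induced inhibitor of mTORC1, had 6, 4 and 4 peaks on chromosome 10 from 74032446 to 74038369, and 69.7% of that run lay under DMSO peaks. Its highest pileups were 63, 27 and 56 fragments. PHC2, a Polycomb subunit gene, had 6, 1 and 5 peaks, and SLC20A1, a phosphate transporter gene, had 6, 0 and 5. TRPM3, an ion channel gene that hosts miR-204, had 6, 2 and 7, and BIN3 had 8, 4 and 6. The smaller AGMO run, from 15595852 to 15601769, again had none with A771726, with 5, 0 and 6. The 22 unnamed runs had 169, 19 and 128 peaks, and 15 of them had no A771726 peak. Of their DMSO peaks 7.69% (4.16 to 12.8) had an A771726 peak and 65.1% (57.4 to 72.3) one with nucleotides. Over all run peaks these shares were 14.4% and 64.1%, and over all CDK9 DMSO peaks 5.40% and 45.2%. With A771726 the interval of the unnamed runs thus lay below the share of all run peaks.

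When the same rule was applied to each of the other lists, A771726 gave 10 runs of its own and the list with nucleotides 67. Of the 62 DMSO runs, 8 overlapped a run of the A771726 list and 45 one of the list with nucleotides. The rule gave 14, 6 and 18 runs in the DDX21 lists, and 1 of the 62 overlapped one in each.

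The strongest peak of a run was usually found again with nucleotides, as strong CDK9 DMSO peaks in general were. It overlapped a peak of that list in 56 of 62 runs, and an A771726 peak in 24. Of all 346 CDK9 DMSO peaks in the highest decile of −log10 q, 317, or 91.6%, had a peak with nucleotides. With A771726 103 of these 346, or 29.8%, had one. The RefSeq promoter table, looked up by the symbol of runs named for a single gene, gave a strand for 21 runs. Places were measured from the ends of the runs, and where the genes begin on hg19 was not used. In 16 of the 21 the strongest DMSO peak began nearer to the end of the run on the 5′ side than to the other end. In SNHG3, PHLDA1, SPRY2, ID1 and TIMP3 it was the outermost peak on that side. The other 5 were SLC20A1, TRPM3, the first WWTR1 run, the second SOX5 run and the second AGMO run, and at WWTR1 it lay 27173 bp from the 5′ side of a run of 35124 bp. The highest pileup of a run was lower with nucleotides than in DMSO in 24 runs, equal in 4 and higher in 34, and it was lower with A771726 in 31 of the 32 runs with a peak. These counts hold for unscaled pileups alone, since the lists' lowest backgrounds were 1.17, 0.521 and 1.24 fragments.

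DDX21 was sparse in the runs. Of the 568 run peaks, 31 overlapped a DDX21 DMSO peak, or 5.46% (3.74 to 7.66), against 17.8% of all CDK9 DMSO peaks and 20.2% (18.8 to 21.7) outside runs. In the stretches of exactly 4 peaks, just outside the rule, 4 of 160, or 2.5%, overlapped one. The low share was thus not particular to runs of 5 or more. The share was lower in runs in all 10 deciles of −log10 q, with 12.1% (6.76 to 19.4) in runs and 38.3% (32.0 to 44.9) outside in the highest. The spans held 38, 29 and 27 DDX21 peaks, and 44 runs held none in any list. Runs with DDX21 peaks in all 3 lists numbered 6: an unnamed run on chromosome X, the histone run on chromosome 1, MALAT1, PHLDA1, SNHG3 and FOSL1. MALAT1, SNHG3 and FOSL1 had 1 DDX21 peak in each list, PHLDA1 had 1, 2 and 1, and the histone run had 4, 3 and 3.

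Much of the DDX21 signal in runs came from 3 places with a high background. The run on chromosome X from 114963385 to 114999435 had 13, 17 and 13 DDX21 peaks and 11, 1 and 5 CDK9 peaks. Runs on chromosome 1 from 161413034 to 161440319 and, at the tandem 5S ribosomal RNA genes, from 228746031 to 228768522 had 9, 0 and 4 and 9, 0 and 6 CDK9 peaks. Median backgrounds under their CDK9 DMSO peaks were 14.6, 22.2 and 15.3 fragments, while those of the other 59 runs went from 1.95 to 7.62. These 3 runs held 20 of the 38 DDX21 DMSO peaks. Without them 3.15% (1.85 to 5.002) of run peaks overlapped a DDX21 DMSO peak, and the shares with A771726 and with nucleotides were 15.03% and 64.9%.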

How the data were processed

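Peak lists of 6 immunoprecipitated libraries, 1 per group, were read and grouped by sample title. Per the submitters' processing notes, Bowtie, MACS2 2.0 and hg19 were used. Parameters, the control and read totals are not given, so depth is unknown. Each deposited list gives a fold enrichment (a ratio to local background), a −log10 p-value, a −log10 q-value and a score, which was not used, as the authors' peak caller wrote them for 1 library. Runs, overlaps of at least 1 bp, covered bp and exact Clopper-Pearson 95% intervals were computed with Python 3.11.15, pandas 2.3.3 and SciPy 1.17.1. Pileup and background were solved from fold enrichment, taken as (pileup + 1)/(background + 1), and a Poisson tail, with errors of −log10 p up to 0.000114. Finding runs, overlaps and pileups was checked on simulated data. Members, lists and loci were chosen with earlier results of these data known. Regions named by rule were the 10 runs with most DMSO peaks, the 5 with most A771726 peaks, the 5 highest and 5 lowest ratios of nucleotides to DMSO, the longest, the shortest, and those with DDX21 peaks in all 3 lists. Other named loci, their groups and the deciles were chosen after values were seen. Alternatives were gaps of 5 and 20 kb, at least 4 or 10 peaks, merging within 1 kb, a −log10 q of at least 5, lists of equal length, an overlap of 50%, summits within 250 bp, and leaving out runs.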

Additional observations from a re-analysis of the deposited data

How the results depend on the processing

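Among 90 alternatives (75 planned), 59 left a share inside its 95% interval or a number within 1.5 times the one reported, and 31 did not. The share of CDK9 DMSO peaks in runs was 12.02% with gaps of at most 5 kb and 21.2% with 20 kb. With at least 4 peaks there were 102 runs with 21.03% of peaks. With at least 10 there were 19 runs with 8.001%, of which 19.1% had an A771726 peak and 59.2% one with nucleotides, and their spans held 85 A771726 peaks and 222 with nucleotides over 84994 bp. Merging within 1 kb first left 24 runs with 5.45% of merged peaks, 10.2% of them on DDX21, with 33 A771726 stretches and 127 with nucleotides over 110548 bp. Merging within unchanged spans gave 64 and 224. A −log10 q of at least 5 left 38 runs with 13.96% of peaks, holding 43 A771726 peaks over 11873 bp and 221 with nucleotides over 104464 bp. Of the 103 run peaks among the top 290 DMSO peaks 37.9% had an A771726 peak, and the top 290 with nucleotides put 92 peaks, fewer than the 131 with A771726, and 64906 bp in the spans. The share with nucleotides was 58.5% at an overlap of 50% and 58.6% for summits within 250 bp. Leaving out the 3 high-background runs put 3.15% on DDX21. The setting of equal lengths could not change the numbers with A771726. The leave-out of high backgrounds, the unchanged spans and the cut of all CDK9 lists to one length were added after the data were seen. No paired analysis was possible because each group has 1 library, and none could be left out for the same reason.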
